A study of Homo sapiens with 11 samples.

Results

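This comparison set HEK293T cells given the compound AA132 at 30 µM directly against HEK293T cells given thapsigargin (Tg) at 500 nM, both for 6 h. HEK293T is an established human embryonic kidney cell line, here of wild-type genotype and grown in 10 cm plates. The members are the 3 numbered columns of each treatment in a table of counts, 6 of its 33 libraries. The other 27 libraries hold vehicle (0.1% DMSO), AA147 at 10 µM and AA132 at 7 lower doses, and the 3 vehicle libraries serve below as the reference level. The labels list 1 sample for each condition, while the table has 3 numbered columns. Nothing says that these came from separate cultures. The p-values therefore measure only the spread between columns of the same condition, estimated over all 33 libraries. That spread may be technical. All values are of bulk RNA, in which fewer cells of a kind and less RNA per cell cannot be told apart.

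Thapsigargin inhibits SERCA, the pump that fills the endoplasmic reticulum (ER) with calcium. Calcium then drains from the ER, its chaperones fail, and unfolded proteins accumulate. The unfolded protein response answers through ATF6 and IRE1, which raise ER chaperones and the machinery of folding, transport and disposal, and through PERK, which slows translation and favours the transcription factors ATF4 and CHOP. AA132 is a small molecule studied as an activator of this response. Other stress programmes are run by NRF2, which drives antioxidant genes, and by HSF1, which drives the chaperones of the cytosol. HMOX1, HSPA5 and HSPA1A stand for the NRF2 programme, the ER programme and the HSF1 programme.

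Depth was alike in the 6 libraries, at 36.4 to 36.8 M counts under AA132 and 37.5 to 37.96 M under Tg. Values are given as CPM, which is counts scaled to a common library size with a correction for composition, with the SD over 3 libraries. The line's own genes LHX1, NEFM, NEFL, VIM, KRT8 and KRT18 were present in all 6 libraries, PAX2 was low at 0.41 to 1.25 CPM, and each of 7 markers of other cell types (ALB, PTPRC, HBB, CD3E, KRT5, MLANA and SFTPC) had 5 counts or fewer. AA132 library 3 differed from libraries 1 and 2 by a chi-square of 20.2 and 14.3 per degree of freedom, where those 2 differed by 6.82 and the Tg pairs by 4.98 to 8.01. Vehicle library 1 stood further apart, at 64.5 and 49.9. It has no part in the direct contrast other than through the shared estimates of spread and scaling.

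The 2 treatments left HEK293T cells with widely different RNA. Of 17792 genes tested, 5305 were called different at an adjusted p under 0.05 (edgeR quasi-likelihood test, Benjamini-Hochberg), which is 29.8% of genes. They divided into 2553 higher under AA132 (14.3% of genes) and 2752 higher under Tg (15.5%). Most differences were small: the median absolute log2 fold change of called genes was 0.44, and 641 genes (3.6%) differed by at least 1 on the log2 scale. Larger differences leaned towards Tg. Past 1 there were 199 higher under AA132 against 442 higher under Tg, past 2 there were 30 against 104, and past 3 there were 11 against 35. The 3 libraries of one treatment did not overlap those of the other for 46.8% of all genes. Without AA132 library 3, 4410 genes were called and 588 of them differed by at least 1.

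**Figure D1:**
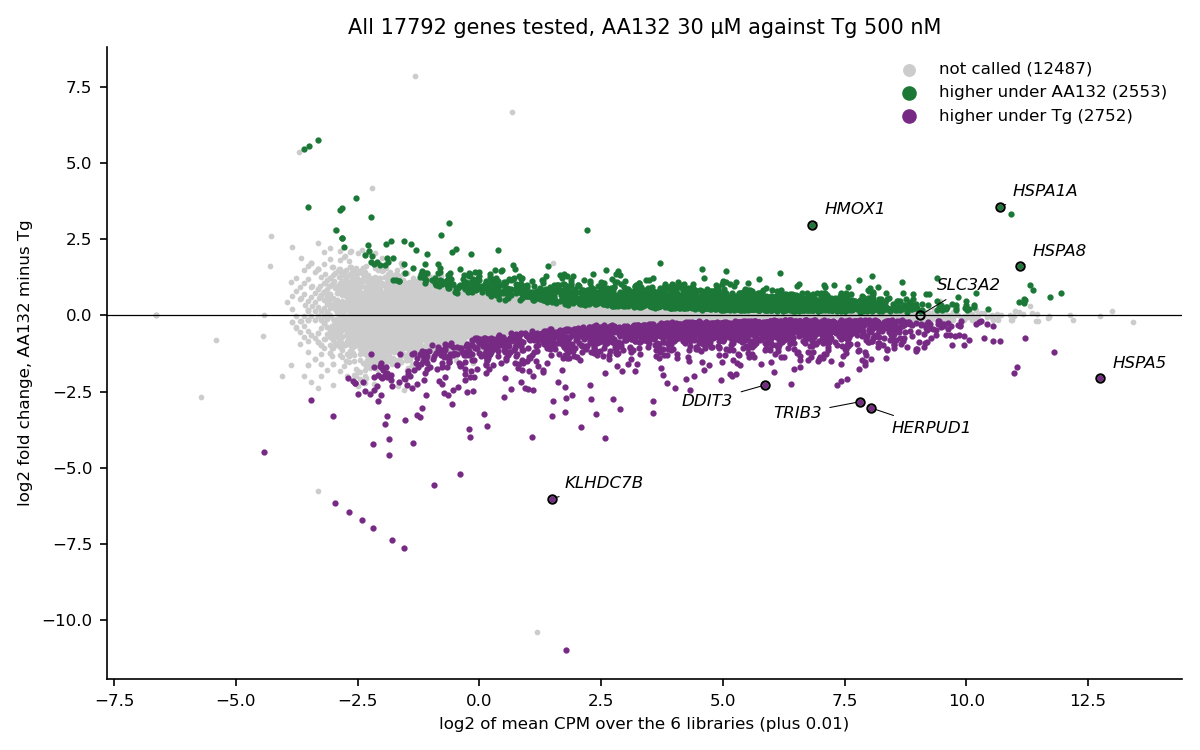
Log2 fold change of AA132 over Tg (vertical axis) against the log2 of the mean CPM over the 6 libraries (horizontal axis) for 17792 genes, with called genes coloured by direction. HSPA1A at 3.58 and HMOX1 at 2.97 lie far above 0, while HERPUD1 at -3.04 and HSPA5 at -2.06 lie far below it.

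The 3 marker genes parted the treatments in opposite directions. HMOX1 (chromosome 22, 35380361 to 35394214), which encodes the haem-degrading enzyme haem oxygenase 1, stood at 208, 189 and 205 CPM under AA132 and at 22.4, 29.3 and 24.9 CPM under Tg. Vehicle libraries held 16.4, 11.1 and 11.9 CPM. The AA132 libraries were thus well clear of all others, and the Tg libraries lay above vehicle without overlap. HMOX1 was 7.86 times as high under AA132 as under Tg (log2 fold change 2.97, SE 0.33, adjusted p = 9.74e-09).

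HSPA5 (chromosome 9, 125234853 to 125241382) encodes BiP, the main chaperone of the ER. Its level was 2450, 2646 and 2814 CPM under AA132, 10969, 10778 and 11322 CPM under Tg, and 1025, 973 and 881 CPM under vehicle. The 3 groups did not overlap, and the AA132 libraries lay between the others. HSPA5 was 4.18 times as high under Tg as under AA132 (log2 fold change -2.06, SE 0.16, adjusted p = 5.24e-12).

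HSPA1A (chromosome 6, 31815543 to 31817946) encodes the stress-inducible HSP70 of the cytosol. The AA132 libraries had 3033, 2957 and 3144 CPM, the Tg libraries 249, 247 and 269 CPM, and the vehicle libraries 1197, 1053 and 1060 CPM. Here vehicle lay between the treatments: AA132 was above it and Tg below it, with no overlap. The resulting difference was 11.9-fold (log2 fold change 3.58, SE 0.19, adjusted p = 8.08e-16). The adjacent copy HSPA1B is nearly identical in sequence, so how reads were divided between the copies is uncertain. HSPA1B showed the same order, with 3499 ± 94.1 CPM under AA132 and 347 ± 14.7 CPM under Tg (log2 fold change 3.33, adjusted p = 4.28e-16).

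**Figure D2:**
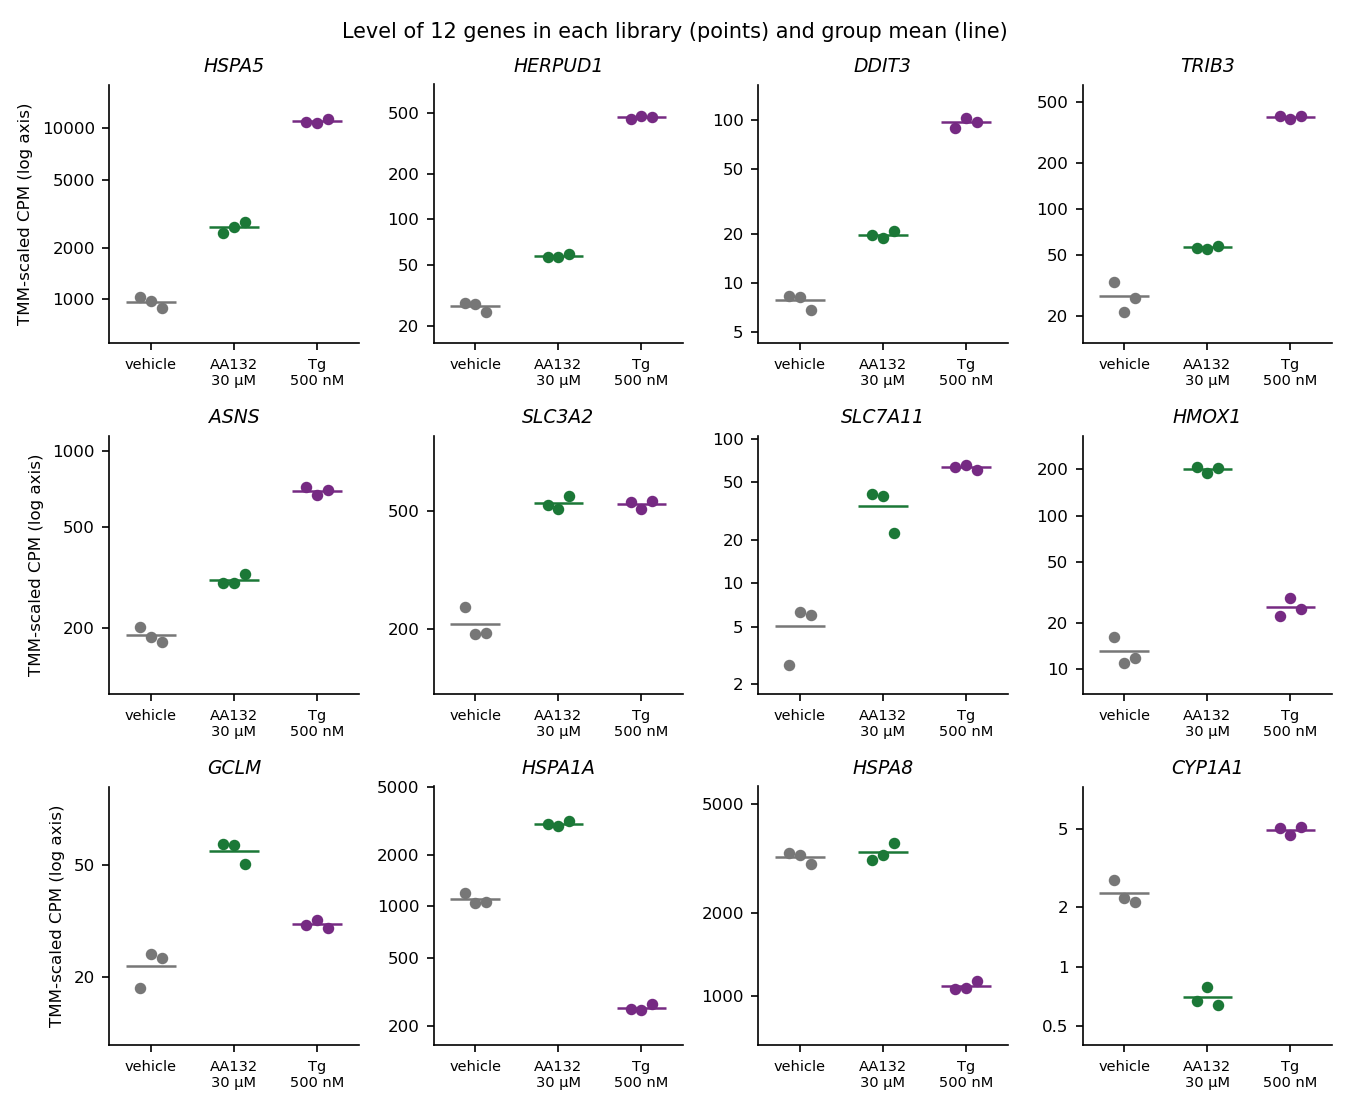
Level of key genes in CPM (log axis) in each vehicle, AA132 30 µM and Tg 500 nM library, with the mean of 3 libraries as a line. HSPA1A shows vehicle between the treatments, HSPA5 shows AA132 between vehicle and Tg, and SLC3A2 shows AA132 and Tg overlapping.

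Among ER chaperones and folding factors, every one of the 12 tested members was called higher under Tg, where 15.5% of all genes were. The median log2 fold change of AA132 over Tg was -1.30, against -0.01 over all genes tested, with a range from -2.07 to -0.74. Compared with vehicle, the same 12 genes were called higher under each treatment, with medians of 0.65 for AA132 and 2.19 for Tg. Of all 17792 genes, 687 were called higher and 568 lower than vehicle under AA132. Under Tg, 2875 were called higher and 2676 lower. These counts are the background for every list set against vehicle below. The comparisons with vehicle share its libraries and are given side by side. The size of the gap differed among members. HYOU1, an HSP70-like ER chaperone, had 819, 861 and 906 CPM under AA132 and 3085, 3207 and 3248 CPM under Tg (log2 fold change -1.88). SDF2L1, a partner of BiP, had 73.7, 69.2 and 74.0 CPM under AA132 and 306, 302 and 303 CPM under Tg (-2.07). Calreticulin (CALR), a lectin chaperone that binds calcium, was closer, at 1769 ± 103 CPM under AA132 and 2956 ± 172 CPM under Tg (-0.74). HSP90B1 (-1.20) and the disulfide isomerase PDIA4 (-1.69) fell inside this range.

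Promoters are shown for HSPA5, the ER marker, and for HERPUD1, the ER gene with the widest gap, because they carry letters of known ER stress elements. The sequences are the 250 bases before the RefSeq gene start, read 5′ to 3′ on the gene's strand (GRCh38.p14 chr9:125241344-125241593, reverse strand, for HSPA5, and GRCh38.p14 chr16:56931892-56932141, forward strand, for HERPUD1). Capitals mark matches to the ER stress element ERSE in HSPA5, from its CCAAT box to its CCACG box, 66 to 48 bases before the start. In HERPUD1 they mark ERSE-II, from ATTGG to CCACG, 117 to 107 bases before the start, and the CARE element bound by ATF4 with C/EBP partners (TGATGNAA), 176 to 169 bases before it on the other strand.
HSPA5: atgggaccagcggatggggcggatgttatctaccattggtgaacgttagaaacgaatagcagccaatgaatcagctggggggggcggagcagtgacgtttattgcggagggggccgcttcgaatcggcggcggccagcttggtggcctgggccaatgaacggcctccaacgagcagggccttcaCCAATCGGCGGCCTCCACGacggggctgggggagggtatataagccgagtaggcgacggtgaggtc
HERPUD1: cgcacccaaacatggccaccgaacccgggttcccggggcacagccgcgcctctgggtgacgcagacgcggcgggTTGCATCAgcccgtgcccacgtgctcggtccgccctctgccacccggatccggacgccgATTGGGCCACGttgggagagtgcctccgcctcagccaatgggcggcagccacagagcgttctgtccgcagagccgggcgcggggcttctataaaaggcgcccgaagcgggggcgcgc
Each motif was searched on both strands of 12337 promoters of tested genes. ERSE was found in 18 of them (0.146%). Of these, 13 are among the 2053 promoters of genes called higher under Tg and 0 among the 1899 of genes called higher under AA132. ERSE-II was found in 12 of all promoters (0.097%), in 6 of the 2053 (0.292%) and in 2 of the 1899 (0.105%). In the ER chaperone list, 5 of 11 promoters held ERSE and 2 of 11 held ERSE-II. CARE was found in 1.52% of all promoters and in 2.34% of the 2053 of genes called higher under Tg. Its share was 7.5% of the 280 whose genes were higher under Tg by at least 1 on the log2 scale. For the 59 higher by at least 2 it was 18.6%. On the AA132 side it was 0.84% of the 1899, 1.61% of the 124 higher by at least 1, and 0 of the 15 higher by at least 2. A match describes letters in the window and shows no binding.

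ER-associated degradation, which draws misfolded proteins out of the ER for the proteasome, leaned the same way, with a median of -1.09. Of 12 tested members, 10 were called higher under Tg and 0 higher under AA132, where 15.5% and 14.3% of all genes were. HERPUD1 (chromosome 16, 56932142 to 56944864), a scaffold of this machinery, stood at 56.3, 56.7 and 59.2 CPM under AA132 and at 461, 481 and 472 CPM under Tg, against 28.3, 28.1 and 24.7 CPM in vehicle. The groups did not overlap, and the Tg mean was 8.21 times the AA132 mean (log2 fold change -3.04, SE 0.12, adjusted p = 1.87e-19). EDEM1, which trims mannose from misfolded glycoproteins, had 64.5, 65.7 and 63.7 CPM under AA132 and 185, 193 and 168 CPM under Tg. The AA132 values of EDEM1 lay within the range of vehicle, 56.2 to 73.9 CPM, and the log2 fold change against vehicle was 0.02 (adjusted p = 0.922). SEL1L (-2.14) and DERL3 (-1.86), both of the membrane complex that moves proteins out, were also higher under Tg. FAF2 (-0.03) was among those not called.

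All 14 tested genes of the translocon, glycosylation and secretory traffic, the usual targets of the IRE1 product XBP1s, were called higher under Tg. Of all genes, 15.5% were. The median of the 14 was -0.96. DNAJB9, an ER co-chaperone and a common readout of XBP1s, had 15.7, 15.3 and 12.7 CPM under AA132 and 60.5, 56.7 and 58.1 CPM under Tg (log2 fold change -2.001). SEC24D, a coat protein of vesicles leaving the ER, had 56.6, 57.6 and 52.8 CPM under AA132 and 282, 268 and 265 CPM under Tg (-2.29). Against vehicle, 7 of these 14 genes were called higher under AA132 and 14 under Tg, where 687 and 2875 of all 17792 genes were. Of 10 stress sensors and signalling genes, 6 were called higher under Tg and 0 higher under AA132, where 15.5% and 14.3% of all genes were. The median was -0.56. XBP1 was at 125 ± 7.61 CPM under AA132 and 357 ± 13.3 CPM under Tg (-1.51), and PERK itself, encoded by EIF2AK3, at 42.5 ± 1.49 and 110 ± 5.08 CPM (-1.37). For the other eIF2α kinases EIF2AK1, EIF2AK2 and EIF2AK4, the log2 fold change was -0.09, -0.18 and -0.05, and none was called.

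The ATF4-CHOP list had a median of -1.79, the furthest from 0 of the 17 lists. Called higher under Tg were 12 of 13 tested members, where 15.5% of all genes were. DDIT3 (chromosome 12, 57516588 to 57521737), which encodes CHOP, stood at 19.6, 19.0 and 20.8 CPM under AA132 and at 89.5, 103 and 97.4 CPM under Tg, with 8.40, 8.28 and 6.89 CPM in vehicle. AA132 lay above vehicle and far below Tg in every library (log2 fold change -2.29, SE 0.17, adjusted p = 1.08e-12). TRIB3, a pseudokinase that CHOP induces, had 55.8, 54.9 and 57.3 CPM under AA132 and 405, 388 and 401 CPM under Tg, a difference of 7.11 times. ATF4 RNA itself differed less, at 634 ± 51.1 and 982 ± 3.59 CPM (-0.63), and so did ATF3 (-0.70). ATF5 was the member not called: it had 12.8 ± 0.34 CPM under AA132 and 10.6 ± 1.55 CPM under Tg, with a 95% interval of the log2 difference from 0.02 to 0.53 and an adjusted p of 0.0972.

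Genes of amino acid synthesis, transport and tRNA charging, which ATF4 induces, were called higher under Tg for 15 of 17 tested members. Of all genes, 15.5% were. The median of the list was -0.95. ASNS, asparagine synthetase, had 300, 301 and 327 CPM under AA132 and 720, 672 and 699 CPM under Tg (log2 fold change -1.17). SLC7A5, the transporter of large neutral amino acids, had 116, 115 and 118 CPM against 253, 254 and 243 CPM (-1.10). The exception among well expressed members was SLC3A2 (chromosome 11, 62856004 to 62888880), which encodes the heavy chain that SLC7A5 and SLC7A11 both need. It stood at 525, 508 and 564 CPM under AA132 and at 539, 507 and 543 CPM under Tg, with 238, 192 and 193 CPM in vehicle. The 2 treatments overlapped and both lay above vehicle. The log2 difference was 0.01, with a 95% interval from -0.25 to 0.26 (adjusted p = 0.974). ALDH1L2 was not called either (-0.64, adjusted p = 0.122), at 1.64 and 2.55 CPM.

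SLC7A11, the cystine importer that pairs with SLC3A2 and is a target of both ATF4 and NRF2, was higher under Tg. Its levels were 41.4, 39.98 and 22.2 CPM under AA132, 63.8, 66.1 and 60.7 CPM under Tg, and 2.74, 6.35 and 6.02 CPM in vehicle. AA132 library 3 lay well under the other two of its group, and the treatments did not overlap. The log2 fold change was -0.88 (SE 0.26, adjusted p = 0.00913). Without AA132 library 3 it was -0.64 and the call was lost (adjusted p = 0.0862).

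The NRF2-type antioxidant list ran against the ER lists. Of 18 tested members, 14 were called higher under AA132 and 1, SLC7A11, higher under Tg, where 14.3% and 15.5% of all genes were. The median was 0.58. Against vehicle, 14 were called higher under AA132, with a median of 0.72. Under Tg 7 were called higher and 3 lower than vehicle, with a median of 0.18. Of all 17792 genes, 687 were called higher than vehicle under AA132, and 2875 higher and 2676 lower under Tg. Members of this list showed several patterns. SRXN1, sulfiredoxin, had 23.8, 21.0 and 20.9 CPM under AA132 and 11.5, 12.4 and 10.0 CPM under Tg (log2 fold change 0.95, adjusted p = 7.93e-07), with 9.42 to 10.7 CPM in vehicle. The Tg libraries of SRXN1 overlapped vehicle, and the AA132 libraries stood above both. PRDX1, a peroxiredoxin, had 896, 910 and 1029 CPM under AA132, 398, 393 and 418 CPM under Tg and 1004, 888 and 856 CPM in vehicle. For PRDX1 it was Tg that departed from vehicle (-1.18), while AA132 overlapped vehicle (0.05, adjusted p = 0.792).

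The glutathione-making enzyme has a catalytic subunit, GCLC, and a modifier subunit, GCLM, and they differed in this contrast. GCLM had 59.4, 58.9 and 50.6 CPM under AA132 and 30.6, 31.9 and 29.8 CPM under Tg (log2 fold change 0.87, adjusted p = 8.88e-06). GCLC had 148, 150 and 148 CPM under AA132 and 157, 160 and 157 CPM under Tg, a log2 difference of -0.09 with a 95% interval from -0.25 to 0.07 (adjusted p = 0.43). GCLC was called higher than vehicle under both treatments (0.49 and 0.58). OSGIN1, an NRF2 target tied to oxidative stress, was higher under AA132 by 1.10, and SQSTM1, a cargo receptor of autophagy, by 0.82. FTH1 (0.26) and PIR (1.07) were called but lost the call when some single libraries were left out. The adjusted p of FTH1 was then at most 0.159, without AA132 library 3, and that of PIR at most 0.255, without Tg library 1, where its log2 fold change was 0.64.

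The promoters of GCLM and SLC3A2 are set side by side, as one gene differed between the treatments and the other did not. Each is the 250 bases before the RefSeq start (GRCh38.p14 chr1:93909431-93909680, reverse strand, and GRCh38.p14 chr11:62881449-62881698, forward strand). For SLC3A2 this window lies inside the gene bounds given above. The RefSeq start used here is thus downstream of the first base of those bounds. Capitals mark a match to the core antioxidant response element (TGACNNNGC), 34 to 26 bases before the GCLM start on the other strand and 37 to 29 bases before the SLC3A2 start.
GCLM: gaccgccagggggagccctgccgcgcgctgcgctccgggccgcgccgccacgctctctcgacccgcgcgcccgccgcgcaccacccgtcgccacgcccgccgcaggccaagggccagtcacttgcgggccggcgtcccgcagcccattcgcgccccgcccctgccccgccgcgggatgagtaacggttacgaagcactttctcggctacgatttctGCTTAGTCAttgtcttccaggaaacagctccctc
SLC3A2: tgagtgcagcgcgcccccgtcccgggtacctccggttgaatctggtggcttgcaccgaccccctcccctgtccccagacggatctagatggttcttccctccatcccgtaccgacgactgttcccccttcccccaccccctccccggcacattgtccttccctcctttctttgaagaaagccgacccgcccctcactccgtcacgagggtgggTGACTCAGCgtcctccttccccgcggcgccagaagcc
These letters are common: they occur in 11.9% of the 12337 promoters, in 13.3% of those higher under AA132, in 12.2% of those higher under Tg and in 2 of 13 promoters of the NRF2 list. The shares in both directions were close to that of all promoters.

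**Figure D3:**
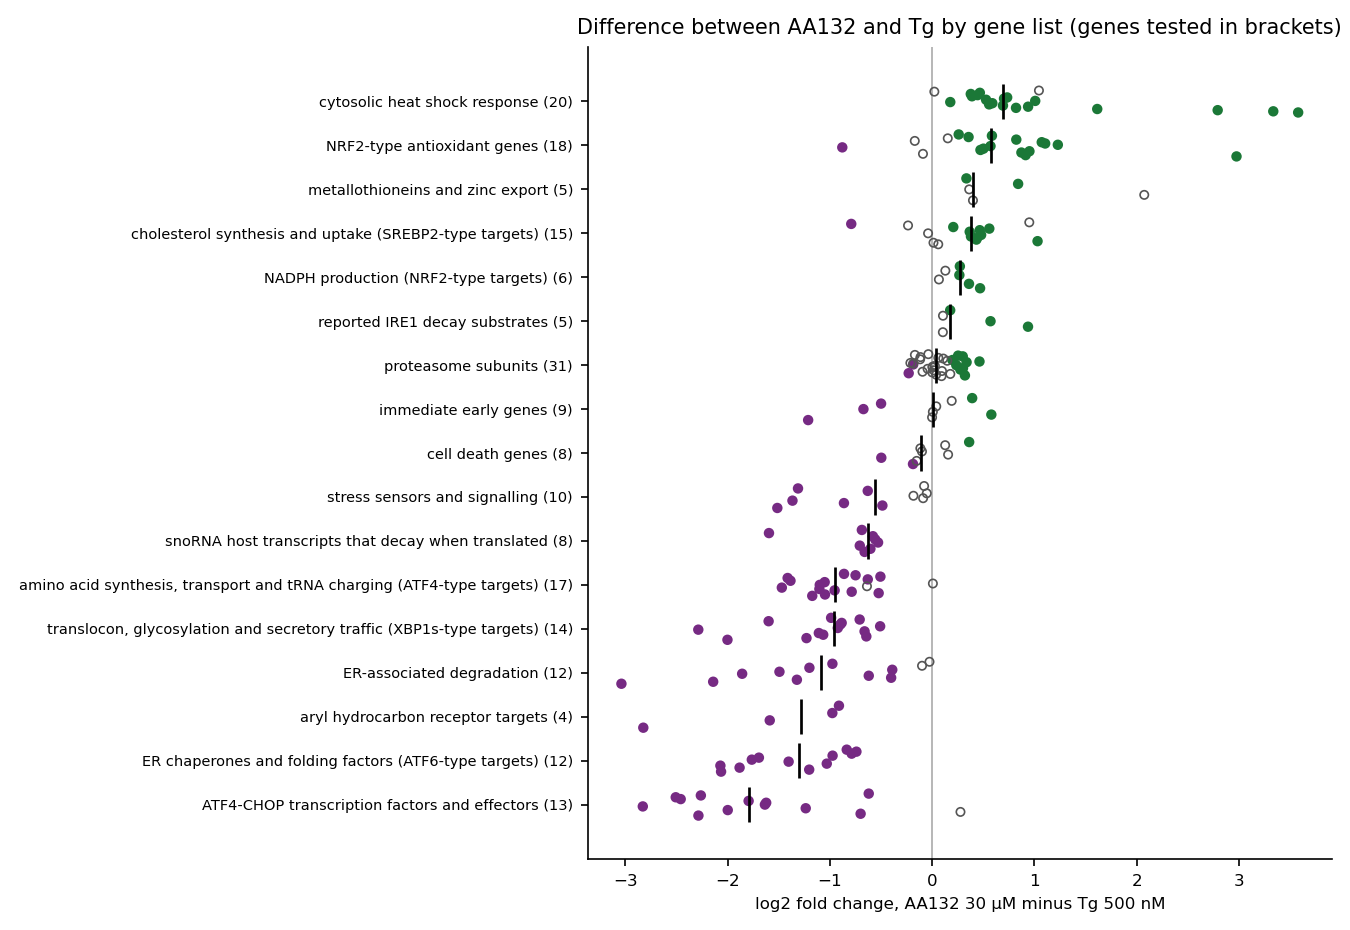
Log2 fold change of AA132 over Tg for each tested member of 17 gene lists, filled where called and open where not, with the median of each list as a black line. The ATF4-CHOP (-1.79) and ER chaperone (-1.30) lists lie to the Tg side of 0, and the heat shock (0.70) and NRF2 (0.58) lists to the AA132 side.

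The cytosolic heat shock list was the most uniform on the AA132 side, with a median of 0.70. Of 20 tested members, 18 were called higher under AA132 and 0 higher under Tg, where 14.3% and 15.5% of all genes were. Against vehicle, 9 were called higher and 0 lower under AA132, with a median of 0.14. Under Tg, 1 was called higher and 16 lower than vehicle, with a median of -0.58. Of all 17792 genes, 687 were called higher and 568 lower than vehicle under AA132. The counts under Tg were 2875 higher and 2676 lower. HSPA8, the constitutive HSP70 of the cytosol, had 3110, 3263 and 3604 CPM under AA132, 1060, 1068 and 1133 CPM under Tg and 3308, 3238 and 3015 CPM in vehicle. AA132 overlapped vehicle, and Tg alone was apart, at a log2 fold change of 1.61 for AA132 over Tg (SE 0.07, adjusted p = 8.81e-19). HSP90AA1, the inducible HSP90, showed AA132 at 3282, 3658 and 3172 CPM, Tg at 1623, 1671 and 1736 CPM and vehicle at 2714, 2843 and 2683 CPM (1.01).

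HSPA6 (chromosome 1, 161524540 to 161526894), an HSP70 that is nearly silent without stress, was low throughout. It had 8.34, 7.54 and 8.30 CPM under AA132, 0.95, 1.17 and 1.36 CPM under Tg and 1.63, 1.74 and 1.70 CPM in vehicle. The AA132 libraries stood clear of all others (log2 fold change 2.79, SE 0.26, adjusted p = 1.89e-10), and Tg against vehicle was not called (-0.54, adjusted p = 0.147). DNAJB1, the co-chaperone of HSP70, was at 181 ± 6.35 CPM under AA132, 94.5 ± 5.30 CPM under Tg and 142 ± 4.09 CPM in vehicle (0.94). BAG3, which links HSP70 to autophagy, was at 95.1 ± 5.43, 58.4 ± 1.23 and 65.8 ± 4.66 CPM (0.70). Its rise over vehicle under AA132 was called (0.53), and its difference from vehicle under Tg was not (-0.17). SERPINH1, a collagen chaperone that resides in the ER, was not called (0.02).

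Promoters of HSPA8 and HSPA6 are shown because HSPA8 overlapped its vehicle level under AA132 and HSPA6 did not. They are the 250 bases before the RefSeq start (GRCh38.p14 chr11:123062137-123062386, reverse strand, and GRCh38.p14 chr1:161524290-161524539, forward strand). Capitals mark matches to the heat shock element, 3 alternating GAA and TTC units on either strand, at 230 to 218 and 55 to 43 bases before the HSPA8 start and 74 to 62 bases before the HSPA6 start. In HSPA6 a match to TGACNNNGC, 141 to 133 bases before the start on the other strand, is also in capitals.
HSPA8: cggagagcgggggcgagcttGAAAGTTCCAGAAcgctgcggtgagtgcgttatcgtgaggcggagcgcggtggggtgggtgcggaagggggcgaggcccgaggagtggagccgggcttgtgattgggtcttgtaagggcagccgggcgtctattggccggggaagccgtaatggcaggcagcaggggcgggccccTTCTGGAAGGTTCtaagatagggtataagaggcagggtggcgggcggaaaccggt
HSPA6: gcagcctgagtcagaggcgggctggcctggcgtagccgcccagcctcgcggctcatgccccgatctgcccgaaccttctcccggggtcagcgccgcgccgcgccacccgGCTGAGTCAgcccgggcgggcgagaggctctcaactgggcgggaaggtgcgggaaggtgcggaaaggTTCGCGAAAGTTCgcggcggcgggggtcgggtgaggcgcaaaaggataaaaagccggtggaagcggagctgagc
The heat shock element was found in 4 of 18 promoters of the heat shock list and in 0.332% of all 12337. Both genes carry it, at different places.

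Smaller lists added detail. The 4 tested targets of the aryl hydrocarbon receptor were all called higher under Tg, where 15.5% of all genes were. The median was -1.28. CYP1A1, a xenobiotic-metabolizing enzyme, had 0.67, 0.79 and 0.64 CPM under AA132, 5.08, 4.67 and 5.15 CPM under Tg and 2.74, 2.23 and 2.12 CPM in vehicle (log2 fold change -2.82, adjusted p = 2.6e-09). Vehicle lay between the treatments: against it, CYP1A1 was lower under AA132 (-1.75) and higher under Tg (1.07). CYP1B1 (-1.59), TIPARP (-0.98) and AHRR (-0.91) were also lower under AA132 than under Tg.

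The 8 tested host transcripts of small nucleolar RNAs, whose spliced RNA is short-lived while it is translated, were called higher under Tg. Of all genes, 15.5% were. The median of the 8 was -0.63. ZFAS1 had 27.9, 27.7 and 26.8 CPM under AA132, 80.6, 86.7 and 81.8 CPM under Tg and 28.9, 27.7 and 22.0 CPM in vehicle (-1.60). Against vehicle, 0 of the 8 hosts were called under AA132 and 8 were called higher under Tg, and without vehicle library 1 the AA132 count was 2. SNHG12 (-0.56, adjusted p = 0.0491) lost its call under most alternatives, with adjusted p up to 0.148. Cholesterol genes were called higher under AA132 for 9 of 15 tested members and higher under Tg for 1, with a median of 0.38. Of all genes, 14.3% and 15.5% were so called. STARD4, a carrier of cholesterol, ran the other way (-0.79). Relative to vehicle, 1 of the 15 was called higher and 1 lower under AA132, with a median of 0.07. Tg had 2 called higher and 8 lower than vehicle, with a median of -0.27.

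Of 6 tested enzymes that produce NADPH, 4 were called higher under AA132 and 0 higher under Tg, where 14.3% and 15.5% of all genes were. The median was 0.27. Against vehicle, 5 of these 6 genes were called lower under Tg and 1 higher under AA132, and without vehicle library 1 these counts were 3 and 2. Metallothioneins and zinc export gave 5 tested of 7 listed genes and 2 called higher under AA132, where 14.3% of all genes were. They were MT2A (0.84) and SLC30A1 (0.33, adjusted p = 0.0255). The SLC30A1 call was lost without AA132 library 1, AA132 library 2 or Tg library 2 (adjusted p = 0.162, 0.105 and 0.116). Immediate early genes divided, with 2 of 9 higher under AA132 and 3 higher under Tg, where 14.3% and 15.5% of all genes were. Relative to vehicle, 1 of the 9 was called higher and 3 lower under AA132. Tg had 1 called higher and 2 lower than vehicle. JUN was higher under AA132 (125 ± 0.87 against 83.8 ± 3.35 CPM), and FOS (2.94 ± 0.20 against 6.82 ± 0.66 CPM) and EGR1 (14.9 ± 1.35 against 23.7 ± 1.70 CPM) were higher under Tg.

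Of 8 tested cell death genes 3 were called, where 29.8% of all genes were: BAX (0.36) was higher under AA132 and PMAIP1 (-0.50) and TNFRSF10B (-0.19) higher under Tg, while MCL1, BCL2, BCL2L1, BCL2L11 and BBC3 were not called. Of 5 reported substrates of IRE1 decay, SCARA3 (0.94), COL6A1 (0.57) and SPARC (0.18) were called higher under AA132, where 14.3% of all genes were. BLOC1S1 (0.10, adjusted p = 0.812) and HGSNAT (0.11, adjusted p = 0.397) were not called. Against vehicle, 1 of the 5 was called higher and 0 lower under AA132, with a median of 0.02. Tg had 1 called higher and 3 lower than vehicle, with a median of -0.17. The 31 proteasome subunits had a median of 0.04, with 9 called higher under AA132 and 2 higher under Tg, where 14.3% and 15.5% of all genes were. Against vehicle, 0 of the 31 were called higher and 1 lower under AA132, and 1 higher and 11 lower under Tg. PSMD1 (0.46) showed the widest gap in that list. Without Tg library 2 the count of proteasome subunits called between AA132 and Tg was 7 in place of 11. The calls of TNFRSF10B and SPARC were lost on leaving out some libraries, with adjusted p up to 0.144 and 0.0903.

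Over all called genes with at least 5 CPM in the higher group, members of the lists included, the 12 with the widest gaps each way were taken. On the Tg side most were low under AA132. KLHDC7B (chromosome 22, 50545899 to 50551023) had 0.05, 0.11 and 0.08 CPM under AA132, from at most 4 counts in a library, 4.40, 6.03 and 6.07 CPM under Tg and 0 counts in each vehicle library (log2 fold change -6.02). BHLHA15 (chromosome 7, 98211439 to 98215457), a transcription factor of secretory cells also called MIST1, had 0.77, 0.55 and 0.75 CPM under AA132 and 10.5, 11.7 and 11.8 CPM under Tg (-4.03, adjusted p = 2.17e-14). Its AA132 values lay among those of vehicle, 0.54 to 0.75 CPM, or just above. INHBE, a subunit of activin, had 0.45, 0.41 and 1.00 CPM under AA132 and 7.82, 7.29 and 8.31 CPM under Tg (-3.65). ESRP1, a splicing factor of epithelial cells, had 2.61, 1.74 and 2.66 CPM against 23.5, 19.7 and 21.2 CPM (-3.20).

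RAB39B (-3.31), ALPK2 (-3.24), MEI1 (-3.08), TRIM55 (-2.75) and the non-coding LINC00346 (-2.82) and LOC105369304 (-3.16) completed that set with HERPUD1 and TRIB3. Of the 12 genes, INHBE, RAB39B, ALPK2, MEI1, ESRP1, TRIM55, BHLHA15, LINC00346 and LOC105369304 were not called against vehicle under AA132. All 12 were called against vehicle under Tg, but they were chosen for their gap in these same Tg libraries. That choice favours such calls, so they are not a separate result. Strand was not stated for the counting, so reads of overlapping or antisense genes could be included in any of these values.

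The largest gaps on the AA132 side were led by HSPA1A, HSPA1B, HMOX1, HSPA6 and HSPA8. The next included 3 genes of the cell surface and matrix. BCAM (chromosome 19, 44809071 to 44821421), a laminin receptor, had 20.9, 19.3 and 19.8 CPM under AA132, 6.25, 6.44 and 5.47 CPM under Tg and 29.9, 20.1 and 19.5 CPM in vehicle (log2 fold change 1.72, adjusted p = 1.41e-12). COL2A1, a fibrillar collagen, had 34.1, 35.6 and 36.0 CPM under AA132 and 11.6, 11.8 and 13.4 CPM under Tg (1.52). LAMA5, a laminin chain, had 116, 97.0 and 99.6 CPM against 39.5, 40.8 and 39.5 CPM (1.39).

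For BCAM, COL2A1, LAMA5, ACTBL2 (1.47) and GAS2L1 (1.38), AA132 was not called against vehicle, with log2 differences from -0.21 to 0.14. Tg was called lower, from -1.94 to -1.23. These genes too were chosen for their gap in the same libraries, which favours a difference from vehicle under Tg or AA132. TRIM47 (1.46) and HSPA1L (1.48) were called against vehicle in both comparisons, higher under AA132 and lower under Tg. HSPA1L lies beside HSPA1A, and its reads may be shared with that gene.

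Some genes had vehicle wholly between the treatments, with no overlap among the 3 groups. Of 17792 genes tested, 191 were called, reached 5 CPM in the highest group and had this order with AA132 at the top. With Tg at the top there were 101 of the 17792. The 6 with the largest lesser step from vehicle were named each way. At the top under AA132 were HSPA1A, HSPA1B, HSPA1L, TRIM47, C10orf35 (now FAM241B) and SMTN. SMTN, a protein of the contractile cytoskeleton, had 29.1, 26.5 and 28.3 CPM under AA132, 23.5, 17.7 and 19.4 CPM in vehicle and 13.8, 13.9 and 13.5 CPM under Tg (log2 fold change 1.03 for AA132 over Tg). At the top under Tg were CYP1B1, KRT80, TTC25 (now ODAD4), ETV4 and the non-coding LOC107984011 and LINC00941. ETV4, a transcription factor of the ETS family, had 6.02, 6.05 and 6.41 CPM under AA132, 18.1, 11.5 and 14.2 CPM in vehicle and 21.6, 19.2 and 20.1 CPM under Tg (-1.72). For SMTN and ETV4 vehicle library 1 was the highest of its group.

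**Figure D4:**
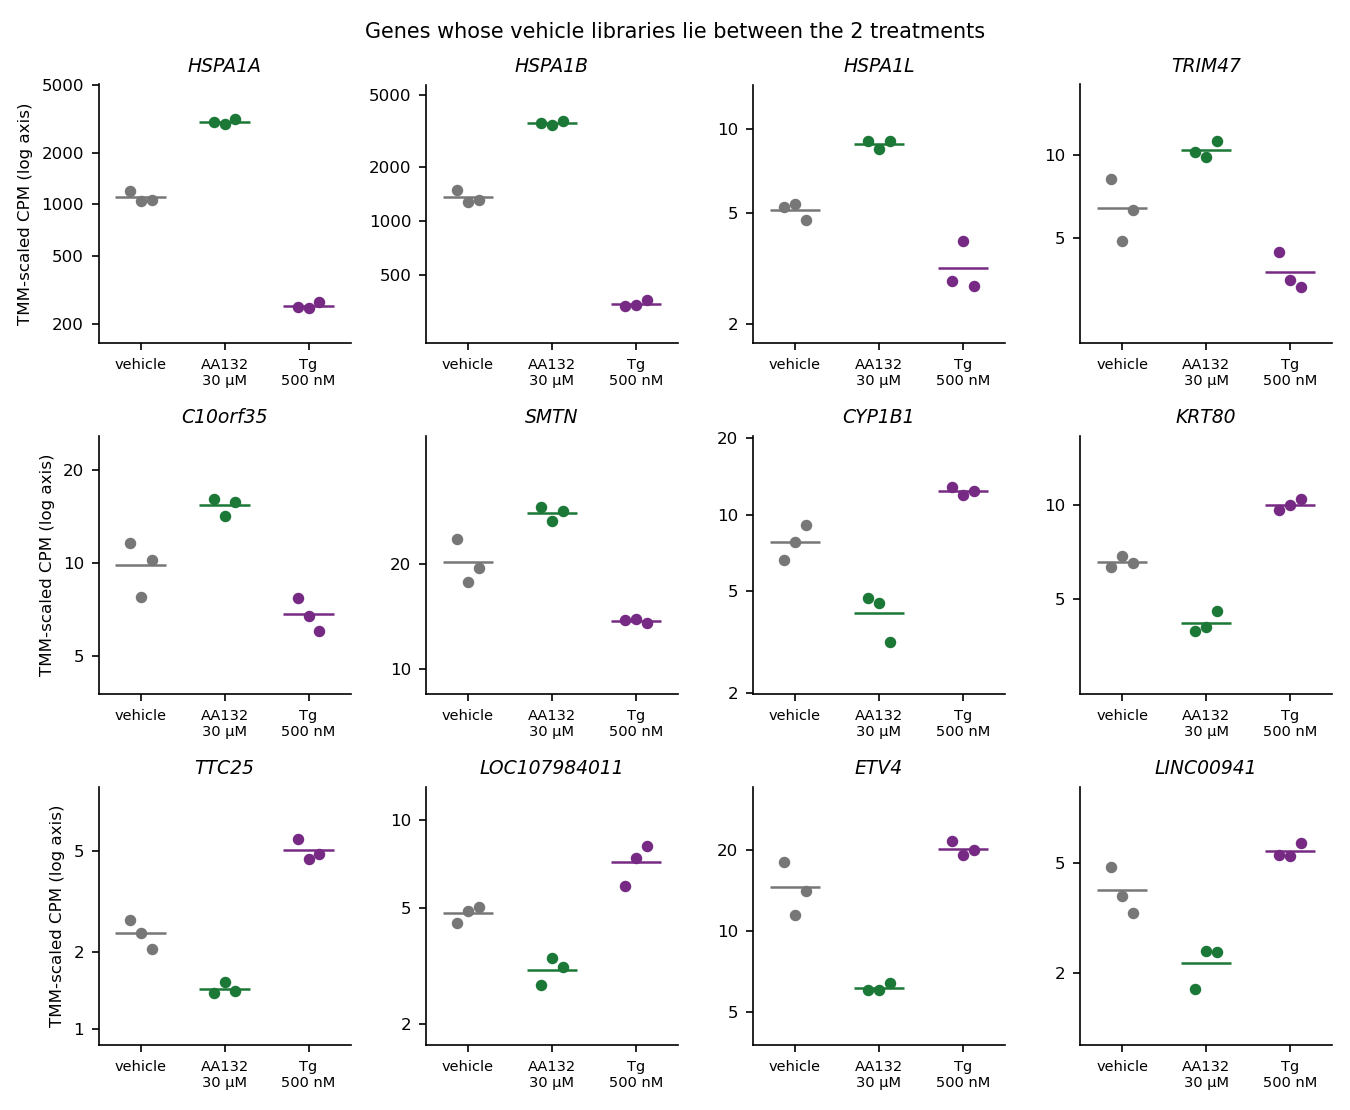
Level in CPM (log axis) of the 12 genes whose 3 vehicle libraries lie between the AA132 30 µM and Tg libraries, each point being 1 library and each line a mean. ETV4 runs from 6.16 CPM under AA132 to 20.3 CPM under Tg, and SMTN from 28.0 CPM down to 13.7 CPM.

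HSPA5 and DDIT3 were below their Tg level at every AA132 dose measured, from 0.1 to 30 µM. For the doses of 6, 10, 15 and 30 µM, HSPA5 had means of 2372, 2459, 2806 and 2636 CPM, and the highest of all 24 AA132 libraries, 2923 CPM, was below the lowest Tg library, 10778 CPM. DDIT3 had similar means, at 20.05, 20.9 and 19.8 CPM for 10, 15 and 30 µM, and its highest AA132 library, at 23.4 CPM, lay under the lowest Tg library at 89.5 CPM. HMOX1 instead had a higher mean at each of these doses, with 70.5, 105, 155 and 201 CPM.

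Over the lists, all 24 AA132 libraries lay below all 3 Tg libraries for 12 of 12 ER chaperones, 14 of 14 translocon and traffic genes, 12 of 13 ATF4-CHOP genes and 16 of 17 amino acid genes, where 11.8% of all tested genes had this order. They lay above all 3 Tg libraries for 17 of 20 heat shock genes, where 9.17% of all tested genes did. Of these 20 genes, 16 were called lower than vehicle under Tg. At 0.1 µM AA132, HSPA1A averaged 1152 CPM and HSPA5 1004 CPM, beside 1104 and 960 CPM in vehicle. For these genes the order at low doses thus sets Tg against a level near vehicle. The 18 NRF2 genes divided, with 4 above all Tg libraries and 3, GCLC, SLC7A11 and ABHD4, below them. For HSPA8, the lowest AA132 library at any dose, 2665 CPM, exceeded the highest Tg library, 1133 CPM. In 3 of the lower doses 1 library stood apart from its group in HSPA5: 1660 CPM against 1028 and 1093 at 1 µM, 1042 against 1921 and 1969 at 3 µM, and 1854 against 2687 and 2836 at 10 µM. In HMOX1 the same library labelled 1 µM had 39.8 CPM against 11.5 and 12.1 CPM, and the same library labelled 3 µM had 14.2 CPM against 43.9 and 49.3 CPM. In both genes, as in HSPA1A and SLC7A11, each of these libraries was nearer to the other pair than to its own, so their dose labels may be exchanged, which was not tested. The orders over all 24 libraries do not depend on those labels. None of these libraries enters the 30 µM means, but all enter the shared estimate of spread behind the SEs and p-values, also for these genes. With only the 6 libraries of the contrast in the fit 6239 genes were called.

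**Figure D5:**
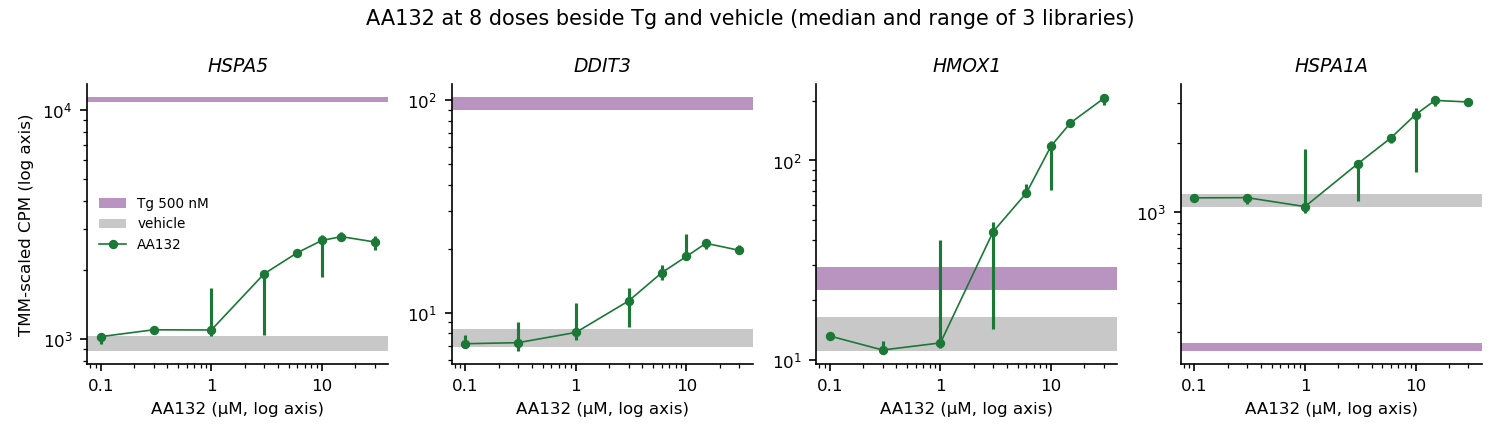
Level in CPM (log axis) of 4 genes against AA132 dose in µM (log axis), with points for the median and vertical lines for the range of 3 libraries (1 library each at 1 and 3 µM may carry the other's label), and bands for the range of the vehicle and Tg libraries. HSPA5 and DDIT3 stay below Tg in all 24 AA132 libraries, while HMOX1 passes the Tg level and HSPA1A is above it throughout.

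Against vehicle, 1255 genes (7.05%) were called under AA132 and 5551 (31.2%) under Tg. Without vehicle library 1 the counts were 2015 and 5145. In the lists, leaving that library out moved the AA132 count from 7 to 5 for ER-associated degradation and from 5 to 3 for sensors. The count of genes higher under AA132 moved from 14 to 13 for NRF2 genes and from 9 to 8 for heat shock genes. The 12 ER chaperones and 15 amino acid genes stayed called. NRF2 genes called higher under Tg moved from 7 to 8. CYP1B1, named above, lost its call against vehicle under Tg without that library.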

How the data were processed

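RNA was sequenced from HEK293T cells on a DNBSEQ platform, per the labels' protocols. The authors deposited expected counts (estimated reads per gene, not scaled between libraries) in 1 table of 33 columns, per the file headers. Its floor of 0.009 was set to 0 and values were rounded. GRCh38.p7 is named in the submitters' processing notes; the aligner, counter, annotation and use of strand are not given in the sources used here. Of 38074 entries, 102 had 1 of 47 repeated names and were added up by name, leaving 38019 genes, and 28 names that had turned into dates were never named. Library totals of the 6 libraries were 36.4 to 37.96 M counts; reads carry no molecular identifiers, so depth limits counting error only.

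All 33 libraries entered 1 quasi-likelihood fit (edgeR 4.0.16 in R 4.3.3) on 11 conditions with TMM scaling and the edgeR filter on low counts, leaving 17792 genes. The threshold was an adjusted p (Benjamini-Hochberg) of 0.05, and intervals are 95%. The common dispersion was 0.00825, or 9.09% as a coefficient of variation. On simulated data for the AA132 against Tg contrast with all 17792 genes, the fit recovered 57.5% of 200 genes changed 1.5-fold (6.50% false calls) and 81.5% of 200 changed 2-fold (5.23%), and made 0 calls with none changed. There, all other genes had 1 mean over the 11 conditions, and no library was made to stand apart. The rates may therefore differ in the real contrast, where 29.8% of genes were called.

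Named genes are the 3 markers, the members of 17 lists, the 12 largest called gaps each way whose groups did not overlap and whose higher group averaged 5 CPM or more, and 6 each way with vehicle between the treatments. The members and lists were chosen with earlier results of these data known, and single values of some list members are not reported here. Equal column numbers did not deviate together (correlations 0.0085, 0.0164 and 0.0067), so no pairing was used. Gene positions are from GENCODE v44 or, for names absent there, RefSeq GRCh38.p14, which also gave promoters for 12337 tested genes. Alternatives were DESeq2 1.42.0, other scalings and filters, fewer conditions in the fit, a replicate block and leaving out each library.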

Additional observations from a re-analysis of the deposited data

How the results depend on the processing

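The count of 5305 genes called lay between 4360 and 4605 when 1 library was left out, and between 3649 (the 2 conditions and vehicle in the fit) and 6239 (only the 2 conditions) under the other alternatives. DESeq2 called 5532, scaling by library totals 5346 (57.5% of them higher under AA132, against 48.1%), and no filter 5046. With the replicate block the count was 5346, and of the named calls the block changed PIR (adjusted p = 0.0526). Whether equal column numbers share a batch over the other conditions was not tested. The count past a log2 fold change of 1, 641, ranged from 588 to 631 on leaving out a library and from 464 (at least 1 CPM in 3 libraries) to 672 (no filter). Among lists, the metallothionein count of 2 was 4 without the filter, 1 with the 2 conditions and vehicle, and 1 to 3 on leaving out a library. The proteasome count of 11 was 7 with the 2 conditions and vehicle and 7 to 10 on leaving out a library. The other 15 lists stayed within 1.5 times their count in every alternative run. Of 176 named genes called in the direct contrast, 17 lost the call in some alternative and 0 changed direction; these were SLC7A11, PIR, FTH1, HSPD1, SLC30A1, IDI1, CYP51A1, IER3, SNHG12, TNFRSF10B, SPARC, PSMA5, PSMB3, PSMC2, PSMC3, PSMC6 and PSMD3. The cause was not tested. Other scalings moved the median of all genes to at most 0.03. Genes with a few counts under AA132, such as KLHDC7B, have fitted fold changes that depend on the prior count.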
